A study of Mus musculus with 12 samples.

Results

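Wnt ligands, their receptors and their modulators were followed in liver RNA from mice with NICD1/Akt-induced cholangiocarcinoma (CCA) and from healthy mice. The genes were chosen by symbol: protein-coding genes named as a Wnt, Frizzled (Fzd), R-spondin (Rspo), Dickkopf (Dkk), secreted Frizzled-related protein (Sfrp), axin or TCF/LEF factor, together with Lrp5, Lrp6, Lgr4 to Lgr6, Znrf3, Rnf43 and the beta-catenin gene Ctnnb1, with at least 10 counts over the 12 libraries. Of 21807 genes in the count tables, 55 matched and 43 reached the minimum. They comprised 11 of 19 Wnt ligands, 9 of 10 Frizzled receptors, both LRP co-receptors, 2 of 4 R-spondins, 5 of 5 genes of the R-spondin receptor and Frizzled ubiquitin ligase group, 7 of 8 secreted inhibitors, 3 of 3 genes of the axin and beta-catenin group and 4 of 4 TCF/LEF factors. No measured difference between groups entered the choice, although earlier results of these data were known when it was made.

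All mice were C57BL/6J. NICD1/Akt mice had received plasmids for the Notch1 intracellular domain (NICD1), for myristoylated AKT (myr-AKT) and for a Sleeping Beauty transposase, the enzyme that moves them into host DNA, by hydrodynamic tail vein injection (HTVi), which reaches mainly liver cells, and were killed 2 weeks (libraries 33, 34 and 35) or 3 weeks (libraries 1, 2 and 3) later. Controls were healthy mice without injection, genotype WT, assigned to the 2-week (30, 31 and 32) or 3-week (10, 11 and 12) stage by their labels. The methods describe male mice that were 5 weeks old at tumour induction and name no promoter that would tie the transgenes to a cell type. The labels describe excised tumours for the injected mice, whose samples are called NICD1/Akt livers here, and leave unsaid whether each of the 3 libraries in a group is from a different mouse, so each p-value covers the variation among these samples only, which may be technical.

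Library totals ran from 13136892 to 19594839 counts (median 16101696). Levels are in CPM, the count of a gene relative to its library's total after TMM scaling over the 12 libraries, which does not correct for gene length. Hepatocyte markers were abundant in every library. Notch1, which NICD1 reads can add to, had 42.1 to 45.5 CPM in the 3-week controls and 324 to 412 in 3-week NICD1/Akt livers, and Spp1, a cholangiocyte gene, had 30.1 to 43.01 CPM in controls and 3027 to 3545 in NICD1/Akt livers. The library labelled control 32 (library 32) stood apart from controls 30 and 31: its levels were 106 CPM for Notch1 (NICD1/Akt at 2 weeks, 101 to 202), 381 for Akt1 (285 to 927) and 1875 for Spp1 (1054 to 4256). Its label and its RNA thus disagree. The 2-week values beside each gene include it, and those without it are given where the 2-week comparison is described. The Y-linked gene Ddx3y had 57.2 CPM in library 32, 120.3 to 126 in 3-week controls and 52.2 to 61.2 in 3-week NICD1/Akt livers, but at most 0.398 CPM in the other 5 libraries of 2 weeks. Sex and stage therefore cannot be told apart wherever 3 weeks are set against 2 weeks.

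Wnt proteins are secreted, lipid-modified ligands that bind Frizzled receptors. With LRP5 or LRP6 as co-receptor they hold off the destruction complex of axin, APC and GSK3, so that beta-catenin accumulates and acts with TCF/LEF factors on target genes, whereas other ligands, among them Wnt5a, Wnt5b and Wnt11, are best known for routes through Ror, Ryk and the planar polarity proteins. R-spondins bind LGR receptors and spare Frizzled from the ubiquitin ligases RNF43 and ZNRF3. In healthy liver, endothelial cells of the central vein supply Wnt2, Wnt9b and Rspo3, and beta-catenin keeps hepatocytes around that vein in their pericentral state.

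At 3 weeks, 32 of the 43 genes had enough counts for the test, and 19 of them (59.4%) were higher in NICD1/Akt livers, 4 (12.5%) were lower and 9 did not pass an adjusted p of 0.05 (edgeR quasi-likelihood test, adjusted over all genes tested). Among all 13408 genes tested, 38.9% were higher and 33.1% lower. The median log2 fold change was 1.199 over the 32 Wnt genes and 0.06 over all genes. The 19 genes that rose were the ligands Wnt4, Wnt5a, Wnt5b, Wnt7b, Wnt9a and Wnt11, the receptors Fzd1, Fzd2, Fzd3, Fzd5, Fzd6, Fzd7 and Lrp6, and Rnf43, Dkk3, Sfrp1, Axin2, Ctnnb1 and Tcf7l2, whereas Wnt2, Lgr5, Tcf7 and Tcf7l1 fell. Wnt7b, Wnt9a, Wnt11 and Fzd2 had at most 3 counts over the 3-week controls. They had enough counts for the test through the NICD1/Akt livers alone, so they could only be called higher. Wnt4 (3, 8 and 17 counts in controls 10 to 12), Fzd3 (8, 13 and 9) and Sfrp1 (11, 9 and 28) also had too few counts in the controls alone. They too needed the NICD1/Akt livers to be tested, which favours calls of higher. With library totals alone as scaling, which moved the median of all genes by 0.704, the counts were 27 higher and 0 lower, beside 67.7% and 9.6% of all genes.

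Of the 8 ligands tested, 6 rose and 1 fell, beside 38.9% and 33.1% of all genes, with a median log2 fold change of 4.01. Wnt11, Wnt7b and Wnt9a had 0, 3 and 3 counts over the 3-week controls. They passed the filter on low counts through the NICD1/Akt livers alone, so they could only be called higher, and the median includes their fitted values. Wnt4, with 3, 8 and 17 counts in those controls, also needed the NICD1/Akt livers to pass the filter. Wnt5b, a ligand best known for signalling without beta-catenin, was the most abundant of the 8 ligands in 3-week NICD1/Akt livers. It had 2.67, 1.92 and 3.42 CPM in controls 10, 11 and 12 and 43.6, 52.4 and 35.2 in NICD1/Akt livers 1, 2 and 3, and 6.32, 7.71 and 6.49 in libraries 30, 31 and 32 and 3.45, 6.66 and 5.74 in NICD1/Akt livers 33, 34 and 35. The 3-week NICD1/Akt livers were thus the only group set apart upwards, and no 2-week NICD1/Akt liver exceeded the highest 2-week control. The log2 fold change, given with its standard error here and in brackets after the levels of other genes, was 4.15 ± 0.23 (adjusted p = 1.71e-06) at 3 weeks, a 17.7-fold difference, and -0.36 ± 0.28 (adjusted p = 0.575) at 2 weeks.

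Read per kilobase of exon (RPKM), the scale on which genes can be compared, the summed level of the 11 ligands was 27.5 ± 2.72 in 3-week NICD1/Akt livers and 3.82 ± 0.609 in 3-week controls, with 11.3 ± 3.72 and 8.48 ± 2.26 at 2 weeks (SD, n = 3 libraries per group). Wnt5b made up 59.6% ± 6.14 of that sum in 3-week NICD1/Akt livers, 26.1% ± 4.55 in their controls, 18.3% ± 6.998 in 2-week NICD1/Akt livers and 31.9% ± 8.88 in 2-week controls. In 3-week NICD1/Akt livers Wnt4 followed at 5.58 ± 0.927 RPKM and Wnt5a at 1.53 ± 0.0966, while in 3-week controls Wnt2 led at 1.99 ± 0.406 ahead of Wnt5b at 1.01 ± 0.283. Wnt7b came after Wnt5a in 3-week NICD1/Akt livers, at 1.30 ± 0.135 RPKM, and the difference between these neighbours was not tested.

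The Wnt5b promoters are shown because Wnt5b was the ligand for which the difference between the 3-week and 2-week effects passed the test in every alternative run. RefSeq (GRCm38.p6) gives Wnt5b 3 start sites on the minus strand of chromosome 6, and the 250 bases before each follow, 5′ to 3′ on the gene's strand. Capitals mark CTTTGA, the core bound by TCF/LEF factors, or TGGGAA, the core bound by RBPJ, the DNA-binding partner of the Notch intracellular domain, on either strand (TCAAAG and TTCCCA when read on the other).
Wnt5b start A, chr6:119449387-119449636: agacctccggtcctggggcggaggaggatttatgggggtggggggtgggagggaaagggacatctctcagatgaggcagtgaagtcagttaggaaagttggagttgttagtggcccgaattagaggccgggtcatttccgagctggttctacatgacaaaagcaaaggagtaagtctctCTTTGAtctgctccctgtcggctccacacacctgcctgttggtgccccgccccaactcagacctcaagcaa
Wnt5b start B, chr6:119467212-119467461: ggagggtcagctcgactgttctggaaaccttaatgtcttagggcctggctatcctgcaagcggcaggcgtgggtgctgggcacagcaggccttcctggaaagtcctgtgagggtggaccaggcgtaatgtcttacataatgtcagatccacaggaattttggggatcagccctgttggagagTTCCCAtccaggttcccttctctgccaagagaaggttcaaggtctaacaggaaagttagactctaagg
Wnt5b start C, chr6:119544348-119544597: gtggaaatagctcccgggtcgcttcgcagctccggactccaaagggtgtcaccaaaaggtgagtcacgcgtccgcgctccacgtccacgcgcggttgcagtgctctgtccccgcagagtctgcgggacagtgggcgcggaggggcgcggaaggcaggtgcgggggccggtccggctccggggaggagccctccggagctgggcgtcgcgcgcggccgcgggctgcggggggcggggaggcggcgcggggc
The TCF/LEF core begins 71 bases before start A and the RBPJ core 68 bases before start B, and neither is found before start C, a window with 78.0% G and C over its 300 bases. The count tables do not resolve which start was used.

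Wnt4, a ligand of kidney and gonad development, had 0.259, 0.696 and 1.42 CPM in controls 10 to 12 and 20.3, 22.1 and 27.8 in NICD1/Akt livers 1 to 3. At 2 weeks it had 3.73, 3.24 and 15.4 in libraries 30 to 32 and 9.83, 7.92 and 30.6 in NICD1/Akt livers 33 to 35. Library 32 and NICD1/Akt liver 35 were high in their groups, liver 35 above every 3-week NICD1/Akt liver. The log2 fold change was 4.98 ± 0.34 (adjusted p = 5.53e-06) at 3 weeks and 1.14 ± 0.78 (adjusted p = 0.544) at 2 weeks.

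Wnt5a, the close relative of Wnt5b, had 1.21, 2.09 and 1.000 CPM in 3-week controls and 12.8, 11.4 and 11.8 in 3-week NICD1/Akt livers. At 2 weeks Wnt5a had 1.86, 2.31 and 5.48 CPM in controls and 3.72, 2.29 and 12.04 in NICD1/Akt livers. Liver 35 alone reached the 3-week NICD1/Akt level, and library 32 lay above livers 33 and 34. The log2 fold change was 3.18 ± 0.24 (adjusted p = 9.32e-06) at 3 weeks and 0.93 ± 0.72 (adjusted p = 0.571) at 2 weeks.

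Wnt7b, an epithelial ligand of lung and skin development, had 0.0863, 0.0871 and 0.0834 CPM in 3-week controls, 3 counts in all, and 5.83, 7.11 and 6.15 in 3-week NICD1/Akt livers, 479 counts. The ratio of summed counts was 74.7 (95% counting interval 25.4 to 363), and the log2 fold change 6.22 ± 0.33 (adjusted p = 1.61e-06). At 2 weeks the levels were 0.0666, 0.433 and 2.16 in controls and 1.06, 0.740 and 5.74 in NICD1/Akt livers (1.56 ± 1.19, adjusted p = 0.570), with liver 35 at the 3-week level and library 32 above livers 33 and 34.

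Wnt9a, a ligand of blood and joint development, stood near the detection limit. It had 0, 0.174 and 0.0834 CPM in 3-week controls, 3 counts in all, and 1.52, 1.03 and 1.16 in 3-week NICD1/Akt livers, 93 counts. At 2 weeks Wnt9a had 1.13, 0.216 and 0.8497 CPM in controls and 0.664, 1.11 and 1.06 in NICD1/Akt livers. The 3-week groups did not overlap, while the other 3 groups did, and control 31 lay near the 3-week controls. The ratio of summed counts at 3 weeks was 14.5 (95% counting interval 4.81 to 71.6), with a fitted log2 fold change of 3.87 ± 0.60 (adjusted p = 5.04e-04). At 2 weeks the fitted value was 0.37 ± 0.62 (adjusted p = 0.785). Against controls 30 and 31 in place of the 3-week controls, a choice made after the data were seen, the call was lost (0.85, adjusted p = 0.269).

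Wnt11, which acts in planar polarity and gastrulation, had 0 counts in all 3-week controls and 1.48 to 2.80 CPM in 3-week NICD1/Akt livers, at least 24.0-fold higher taking 3 counts for the whole control group as the floor (adjusted p = 3.67e-04). At 2 weeks it ran from 0 to 1.004 CPM in controls and from 0.222 to 2.20 CPM in NICD1/Akt livers, highest in library 32 and liver 35. The RefSeq window of its first start, on the plus strand, holds the TCF/LEF core 50 bases before the start and is shown as the other window with this core among the 4 ligands that rose and were matched.
Wnt11, chr7:98834862-98835111: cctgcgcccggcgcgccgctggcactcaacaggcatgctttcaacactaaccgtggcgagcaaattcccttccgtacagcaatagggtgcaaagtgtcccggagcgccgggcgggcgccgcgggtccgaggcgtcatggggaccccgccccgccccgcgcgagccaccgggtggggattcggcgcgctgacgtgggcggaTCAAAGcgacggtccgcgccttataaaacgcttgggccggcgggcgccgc
RefSeq windows (250 bases before to 50 after a start) were matched for 26 of the 43 genes. Of their 36 windows 4 (11.1%) held CTTTGA and 7 (19.4%) held TGGGAA on either strand, beside 16.0% and 25.6% of 32851 windows of all genes, and a match is a description of the letters only. Among the 17 windows of the 11 genes that rose and could be matched, 3 held CTTTGA (Wnt5b, Wnt11 and Fzd1) and 2 held TGGGAA (Wnt5b and Wnt9a). The Axin2 window, chr11:108920099-108920398, held neither.

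Wnt2 and Wnt9b, the ligands of liver endothelial cells, moved differently from the other 6. Wnt2 had 3.48 to 5.26 CPM in 3-week controls and 2.05 to 2.20 in 3-week NICD1/Akt livers without overlap (-0.95 ± 0.22, adjusted p = 0.00446), whereas the 2-week ranges were 4.90 to 5.56 and 4.45 to 7.03 CPM. Wnt9b ran from 0.750 to 2.76 CPM in 3-week controls and from 1.84 to 2.61 CPM in 3-week NICD1/Akt livers and did not pass (0.54 ± 0.41, adjusted p = 0.260). With library totals alone as scaling Wnt2 was no longer called (-0.25, adjusted p = 0.362) and Wnt9b was called higher (1.24, adjusted p = 0.0179). Of the 11 endothelial markers in the files, which include Wnt2, Wnt9b and Rspo3, 5 were lower and 1 was higher at 3 weeks. Of all genes, 33.1% were lower and 38.9% higher. Without Wnt2, Wnt9b and Rspo3, 4 of 8 markers were lower and 1 was higher. The summed level of the 11 markers was 369 to 427 CPM in 3-week controls and 246 to 310 CPM in 3-week NICD1/Akt livers. In whole tissue, fewer cells of a type and less RNA per cell cannot be told apart.

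The 3 remaining ligands, Wnt2b, Wnt6 and Wnt10a, stayed under the filter on low counts and had at most 0.871 CPM in any library. Wnt6 reached that value in NICD1/Akt liver 1 and had 0.258 and 0.140 CPM in livers 2 and 3. With 33 counts in 3-week NICD1/Akt livers and 1 in 3-week controls its ratio was 15.4 (95% counting interval 2.58 to 628), without a test of the spread between libraries.

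**Figure D1:**
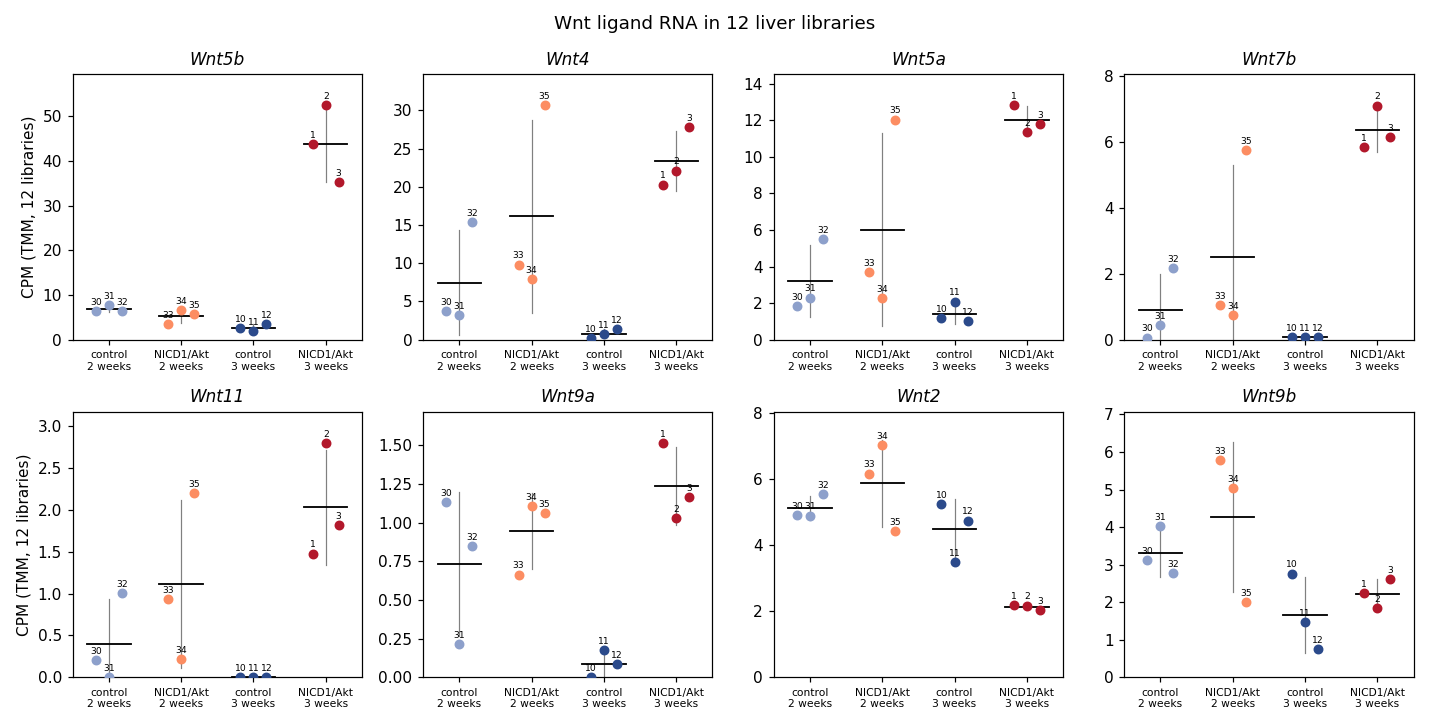
CPM of the 8 tested Wnt ligands in each of the 12 libraries (points, numbered by library), with the group mean (black line) and SD (grey line, n = 3); each panel has its own linear axis from 0. Wnt5b is high in the 3-week NICD1/Akt livers only (35.2 to 52.4 CPM), Wnt4, Wnt5a, Wnt7b and Wnt11 are also high in liver 35, and Wnt2 is low in the 3-week NICD1/Akt livers (2.05 to 2.20 CPM).

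Of the 8 Frizzled receptors tested at 3 weeks, 6 rose, none fell and Fzd4 and Fzd8 did not pass, with a median log2 fold change of 1.82. Of all genes, 38.9% were higher and 33.1% lower. Fzd2, with 0 counts in the 3-week controls, passed the filter on low counts through the NICD1/Akt livers alone, so it could only be called higher. Fzd3, with 8, 13 and 9 counts in those controls, also needed the NICD1/Akt livers to pass the filter. Fzd7, a receptor often found on stem and progenitor cells, had 4.83, 5.05 and 4.50 CPM in controls and 21.7, 21.8 and 22.6 in NICD1/Akt livers at 3 weeks. At 2 weeks Fzd7 had 15.2, 13.3 and 15.2 CPM in controls and 14.3, 27.1 and 15.6 in NICD1/Akt livers. The 3 control livers of 3 weeks were low, while both 2-week groups lay between the 3-week groups except for liver 34. The log2 fold change was 2.32 ± 0.11 (adjusted p = 1.07e-06) at 3 weeks and 0.39 ± 0.26 (adjusted p = 0.538) at 2 weeks.

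Fzd1 had 5.26, 6.53 and 6.92 CPM in controls and 22.2, 20.7 and 21.3 in NICD1/Akt livers at 3 weeks (1.90 ± 0.13, adjusted p = 5.84e-06). At 2 weeks Fzd1 had 11.4, 12.6 and 15.8 CPM in controls and 14.3, 16.1 and 27.3 in NICD1/Akt livers (0.55 ± 0.29, adjusted p = 0.520). Fzd3, a planar polarity receptor of axon guidance, had 0.690, 1.13 and 0.750 CPM in controls and 10.1, 12.4 and 12.5 in NICD1/Akt livers at 3 weeks (3.88 ± 0.23, adjusted p = 2.57e-06). At 2 weeks Fzd3 had 0.532, 0.721 and 2.55 CPM in controls and 2.52, 2.59 and 6.96 in NICD1/Akt livers (1.70 ± 0.73, adjusted p = 0.520). Liver 35 was high for both, and for Fzd1 it exceeded the 3-week NICD1/Akt livers. Unlike Fzd1 and Fzd7, Fzd3 was above all 9 other libraries in the 3-week NICD1/Akt livers. Fzd6, which works with Fzd3 in planar polarity, had 2.16, 3.48 and 2.08 CPM in controls and 7.61, 8.69 and 7.55 in NICD1/Akt livers at 3 weeks (1.75 ± 0.22, adjusted p = 1.65e-04). At 2 weeks Fzd6 had 7.45, 5.55 and 6.64 CPM in controls and 8.77, 7.92 and 13.5 in NICD1/Akt livers (0.63 ± 0.26, adjusted p = 0.520).

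Fzd2 had 0 counts in the 3-week controls and 1.21 to 2.24 CPM in NICD1/Akt livers, at least 21.4-fold higher on the same floor (adjusted p = 3.64e-04). It was present in both 2-week groups, with 0.144 to 0.927 CPM in controls and 0.199 to 1.26 in NICD1/Akt livers. Fzd5 had 6.88 to 9.25 CPM in controls and 14.4 to 18.9 in NICD1/Akt livers (1.15 ± 0.16, adjusted p = 2.67e-04). Fzd4, an endothelial receptor, had the highest mean CPM of the family and did not pass: 23.4, 20.7 and 22.3 CPM in 3-week controls, 27.8, 15.9 and 22.0 in 3-week NICD1/Akt livers (0.10 ± 0.19, adjusted p = 0.648), 32.7, 28.3 and 22.6 in 2-week controls and 29.9, 40.7 and 30.02 in 2-week NICD1/Akt livers. Fzd8 ran from 6.44 to 8.84 CPM in 3-week controls and from 7.14 to 11.2 CPM in 3-week NICD1/Akt livers (0.51 ± 0.21, adjusted p = 0.0613), and Fzd9, untested, had at most 0.630 CPM in any library.

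The summed level of the 9 Frizzled genes was 8.90 ± 0.356 RPKM in 3-week controls and 20.4 ± 1.52 in 3-week NICD1/Akt livers, and 16.1 ± 0.237 and 20.7 ± 3.46 at 2 weeks (SD, n = 3). The 3-week controls held the lowest sum of the 4 groups, and the NICD1/Akt livers of both stages differed by less than their spread. Within 3-week NICD1/Akt livers Fzd1 (5.10 ± 0.171 RPKM) and Fzd7 (4.87 ± 0.103) led, ahead of Fzd4 (3.26 ± 0.885), while Fzd4 led in 3-week controls (3.30 ± 0.199).

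The co-receptors changed little. Lrp6 had 123, 132 and 127 CPM in 3-week controls and 146, 137 and 152 in 3-week NICD1/Akt livers. At 2 weeks Lrp6 had 115, 103 and 96.2 CPM in controls and 114, 136 and 114 in NICD1/Akt livers. The 3-week groups did not overlap, and it passed with a difference of 0.31 ± 0.091 (adjusted p = 0.0147), but not when control 10 (0.28, adjusted p = 0.0704), control 12 (0.30, adjusted p = 0.0522) or NICD1/Akt liver 3 (0.27, adjusted p = 0.0563) was left out, nor with all 12 libraries in 1 fit. Lrp5 had 173, 181 and 164 CPM in controls and 138, 119.5 and 142 in NICD1/Akt livers at 3 weeks without overlap and missed the threshold (-0.26 ± 0.10, adjusted p = 0.0527). At 2 weeks it had 229.7, 216 and 162 in controls and 192, 194 and 120.2 in NICD1/Akt livers, with liver 35 lowest. Per kilobase Lrp5 followed Ctnnb1 in the order of the 43 genes in 3-week controls, at 17.7 ± 0.849 RPKM, and in 3-week NICD1/Akt livers Wnt5b (16.5 ± 3.24) came between Ctnnb1 and Lrp5 (13.7 ± 1.23), with SDs that overlapped for Wnt5b and Lrp5.

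Neither R-spondin passed at 3 weeks. Rspo3, the endothelial R-spondin of the central vein, had 6.73, 4.53 and 5.33 CPM in controls and 2.99, 4.90 and 4.47 in NICD1/Akt livers at 3 weeks (-0.31 ± 0.25, adjusted p = 0.286). At 2 weeks Rspo3 had 9.92, 11.2 and 6.57 CPM in controls and 8.43, 8.88 and 5.15 in NICD1/Akt livers (-0.30 ± 0.29, adjusted p = 0.646). Rspo1, at the count limit, had 0.518, 0 and 0.417 CPM in controls and 0.909, 0.479 and 0.699 in NICD1/Akt livers at 3 weeks (1.25 ± 0.67, adjusted p = 0.123). At 2 weeks Rspo1 had 1.40, 1.66 and 0.618 CPM in controls and 0.465, 0.148 and 0.433 in NICD1/Akt livers, where every control exceeded every NICD1/Akt liver (-1.75 ± 0.60, adjusted p = 0.520). Rspo2 and Rspo4 did not reach 10 counts.

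Among the R-spondin receptors and the Frizzled ubiquitin ligases, Rnf43 rose and Lgr5 fell at 3 weeks, and both are well known targets of beta-catenin in intestine and liver. Rnf43 had 5.69, 7.49 and 5.83 CPM in 3-week controls and 14.5, 12.96 and 15.7 in 3-week NICD1/Akt livers (1.30 ± 0.15, adjusted p = 1.09e-04). At 2 weeks Rnf43 had 13.04, 17.4 and 17.3 CPM in controls and 13.5, 25.8 and 21.2 in NICD1/Akt livers (0.35 ± 0.26, adjusted p = 0.565). The 3-week NICD1/Akt livers overlapped the 2-week controls: against controls 30 and 31 the log2 fold change was -0.090 (adjusted p = 0.777).

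Lgr5, a receptor of pericentral hepatocytes and stem cells, had 5.87, 4.18 and 3.25 CPM in 3-week controls and 2.35, 2.50 and 1.63 in 3-week NICD1/Akt livers (-0.90 ± 0.28, adjusted p = 0.0180). At 2 weeks it had 16.3, 12.3 and 1.54 in controls and 2.86, 5.70 and 1.38 in NICD1/Akt livers (-1.62 ± 0.86, adjusted p = 0.520). Controls 30 and 31 were high, and library 32 lay within the NICD1/Akt range. The 3-week call was lost without control 10 (-0.66, adjusted p = 0.0777), without NICD1/Akt liver 3 (-0.75, adjusted p = 0.0585), and with library totals alone as scaling (-0.19, adjusted p = 0.557). It was also lost with all 12 libraries in 1 fit and with all 6 controls.

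Znrf3, the partner of Rnf43, had 11.6, 12.3 and 11.8 CPM in controls and 14.1, 12.2 and 11.3 in NICD1/Akt livers at 3 weeks (0.19 ± 0.13, adjusted p = 0.195). At 2 weeks Znrf3 had 22.2, 15.4 and 12.7 CPM in controls and 14.6, 18.3 and 13.1 in NICD1/Akt livers. Lgr4, the R-spondin receptor of hepatocytes and the most abundant of this group, had 77.0, 60.1 and 74.1 CPM in controls and 65.4, 58.6 and 65.0 in NICD1/Akt livers at 3 weeks (-0.041 ± 0.11, adjusted p = 0.758). At 2 weeks Lgr4 had 78.9, 74.0 and 64.5 CPM in controls and 54.9, 71.0 and 50.05 in NICD1/Akt livers. Neither passed at either stage, and in both the groups overlapped at 3 weeks. Lgr6 was under the filter, with at most 0.265 CPM.

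Of the 7 secreted inhibitors with 10 counts, Dkk3 and Sfrp1 could be tested and both rose at 3 weeks, beside 38.9% of all genes. Sfrp1, with 11, 9 and 28 counts in the 3-week controls, needed the NICD1/Akt livers to pass the filter on low counts. Dkk3, a divergent Dickkopf, had 4.31, 2.09 and 5.67 CPM in 3-week controls and 25.4, 17.5 and 21.2 in 3-week NICD1/Akt livers (2.52 ± 0.29, adjusted p = 1.02e-04). At 2 weeks Dkk3 had 5.12, 3.53 and 9.35 CPM in controls and 8.97, 6.95 and 17.6 in NICD1/Akt livers (0.92 ± 0.48, adjusted p = 0.520). Sfrp1, which binds Wnt proteins outside the cell, had 0.949, 0.783 and 2.33 CPM in controls and 5.15, 6.33 and 7.69 in NICD1/Akt livers at 3 weeks (2.34 ± 0.37, adjusted p = 5.36e-04). At 2 weeks Sfrp1 had 5.19, 1.23 and 5.95 CPM in controls and 2.99, 3.63 and 12.7 in NICD1/Akt livers (0.67 ± 0.75, adjusted p = 0.681). Liver 35 was the highest 2-week library for both genes, and for Sfrp1 the highest of all 12. Dkk2 had 40 counts in 3-week NICD1/Akt livers and 4 in controls, a ratio of 4.68 (95% counting interval 1.69 to 18.0), and Sfrp4 had 23 and 0 counts, at least 3.58-fold higher on the floor of 3 counts. Dkk4, Sfrp2 and Sfrp5 had at most 0.518 CPM in any library. In the same comparison the 12 markers of stellate cells, fibroblasts and mesothelial cells summed to 293 to 383 CPM in controls and 2083 to 2759 in NICD1/Akt livers. Of these, 9 were higher and 0 lower, beside 38.9% and 33.1% of all genes. The 10 cholangiocyte markers summed to 95.7 to 139 CPM in controls and 3534 to 4163 in NICD1/Akt livers, and all 9 tested were higher, beside 38.9% of all genes. Spp1 alone gave 30.1 to 43.01 and 3027 to 3545 CPM of these sums. The part of these cell types in the Wnt gene results was not tested.

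**Figure D2:**
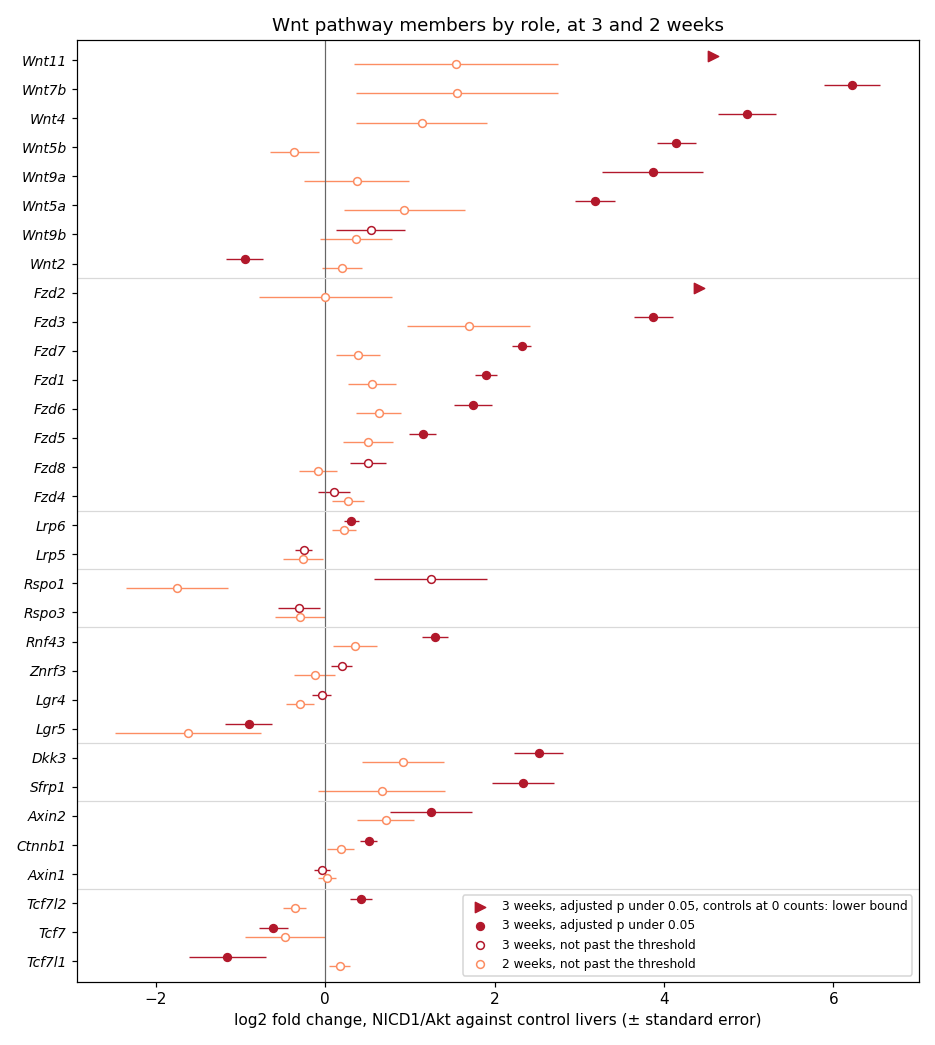
Log2 fold change of NICD1/Akt against control livers with its standard error for the 32 tested genes, grouped by role, at 3 weeks (red) and 2 weeks (orange); filled symbols passed an adjusted p of 0.05, and triangles for Wnt11 and Fzd2 give the lower bound against 3-week controls with 0 counts. At 3 weeks 23 genes passed, 19 of them to the right of 0, and at 2 weeks 0 passed.

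Axin2 and Ctnnb1 rose at 3 weeks and Axin1 did not pass. Axin2, a scaffold of the destruction complex and a feedback target used as a readout of beta-catenin signalling, had 2.16, 6.27 and 1.33 CPM in 3-week controls and 6.59, 5.19 and 9.55 in 3-week NICD1/Akt livers, so that control 11 exceeded liver 2. At 2 weeks it had 12.1, 10.1 and 7.18 in controls and 13.3, 23.7 and 11.2 in NICD1/Akt livers, and every 2-week control exceeded livers 1 and 2. The log2 fold change was 1.25 ± 0.48 (adjusted p = 0.0438) at 3 weeks and 0.71 ± 0.33 (adjusted p = 0.520) at 2 weeks. The 3-week call was lost without control 10 (1.02, adjusted p = 0.140), control 12 (0.86, adjusted p = 0.125), liver 1 (1.29, adjusted p = 0.0782) or liver 3 (0.97, adjusted p = 0.143), and against controls 30 and 31 the sign turned (-0.65, adjusted p = 0.286). With all 12 libraries in 1 fit and with all 6 controls the call was lost too.

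Ctnnb1, the most abundant of the 43 genes per kilobase, had 313, 326 and 287 CPM in 3-week controls and 399, 419.9 and 398 in 3-week NICD1/Akt livers (0.51 ± 0.10, adjusted p = 0.00202), a 1.43-fold difference with no overlap. At 2 weeks Ctnnb1 had 272, 277 and 279 CPM in controls and 285, 304 and 347 in NICD1/Akt livers (0.19 ± 0.16, adjusted p = 0.603). The protein is regulated mainly by its breakdown, which RNA does not show. Axin1 had 35.9, 38.6 and 40.6 CPM in controls and 35.4, 35.5 and 32.2 in NICD1/Akt livers at 3 weeks (-0.038 ± 0.090, adjusted p = 0.718). At 2 weeks Axin1 had 31.2, 28.8 and 32.8 CPM in controls and 32.01, 31.6 and 30.1 in NICD1/Akt livers, which over the 12 libraries was the narrowest range of these 3 genes relative to its level.

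The TCF/LEF factors went in both directions. Tcf7l2, the main factor of this family in hepatocytes, had 20.4, 14.4 and 17.6 CPM in 3-week controls and 20.6, 21.6 and 22.4 in 3-week NICD1/Akt livers (0.42 ± 0.13, adjusted p = 0.0194). At 2 weeks Tcf7l2 had 23.0, 28.7 and 21.7 CPM in controls and 18.9, 19.5 and 18.5 in NICD1/Akt livers, where every control exceeded liver 34, the highest of livers 33 to 35 (-0.36 ± 0.14, adjusted p = 0.520). Without control 12 (0.42, adjusted p = 0.0509) or liver 3 (0.39, adjusted p = 0.0607) the 3-week call was lost, as it was with all 12 libraries in 1 fit and with all 6 controls. Tcf7, abundant in T cells and an intestinal target of beta-catenin, had 6.81, 8.71 and 7.75 CPM in controls and 4.13, 4.71 and 5.17 in NICD1/Akt livers at 3 weeks (-0.61 ± 0.17, adjusted p = 0.0110). At 2 weeks Tcf7 had 15.0, 12.5 and 4.17 CPM in controls and 9.30, 8.21 and 5.27 in NICD1/Akt livers. Scaling by library totals alone turned its 3-week sign (0.093, adjusted p = 0.658), and its call was lost with all 12 libraries in 1 fit and with all 6 controls. The 9 T and NK cell markers in the files summed to 7.75 to 8.97 CPM in 3-week controls and 9.10 to 9.55 in NICD1/Akt livers.

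Tcf7l1, which mostly acts as a repressor, had 49.4, 9.75 and 37.5 CPM in 3-week controls and 12.3, 14.5 and 13.2 in 3-week NICD1/Akt livers. At 2 weeks Tcf7l1 had 15.1, 14.9 and 16.7 CPM in controls and 18.9, 16.4 and 17.1 in NICD1/Akt livers. Controls 10 and 12 stood above all other libraries, whereas control 11 lay below every NICD1/Akt liver. The log2 fold change of -1.16 ± 0.46 (adjusted p = 0.0477) rested on those 2 libraries: it was -0.72 (adjusted p = 0.199) without control 10 and -1.04, adjusted p = 0.122 without control 12, and neither DESeq2 (-1.17, adjusted p = 0.0933) nor limma-voom (-0.87, adjusted p = 0.157) made the call. Lef1, a target and partner of beta-catenin often raised where the pathway is active, stayed at or below 0.930 CPM in every library and could not be tested.

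**Figure D3:**
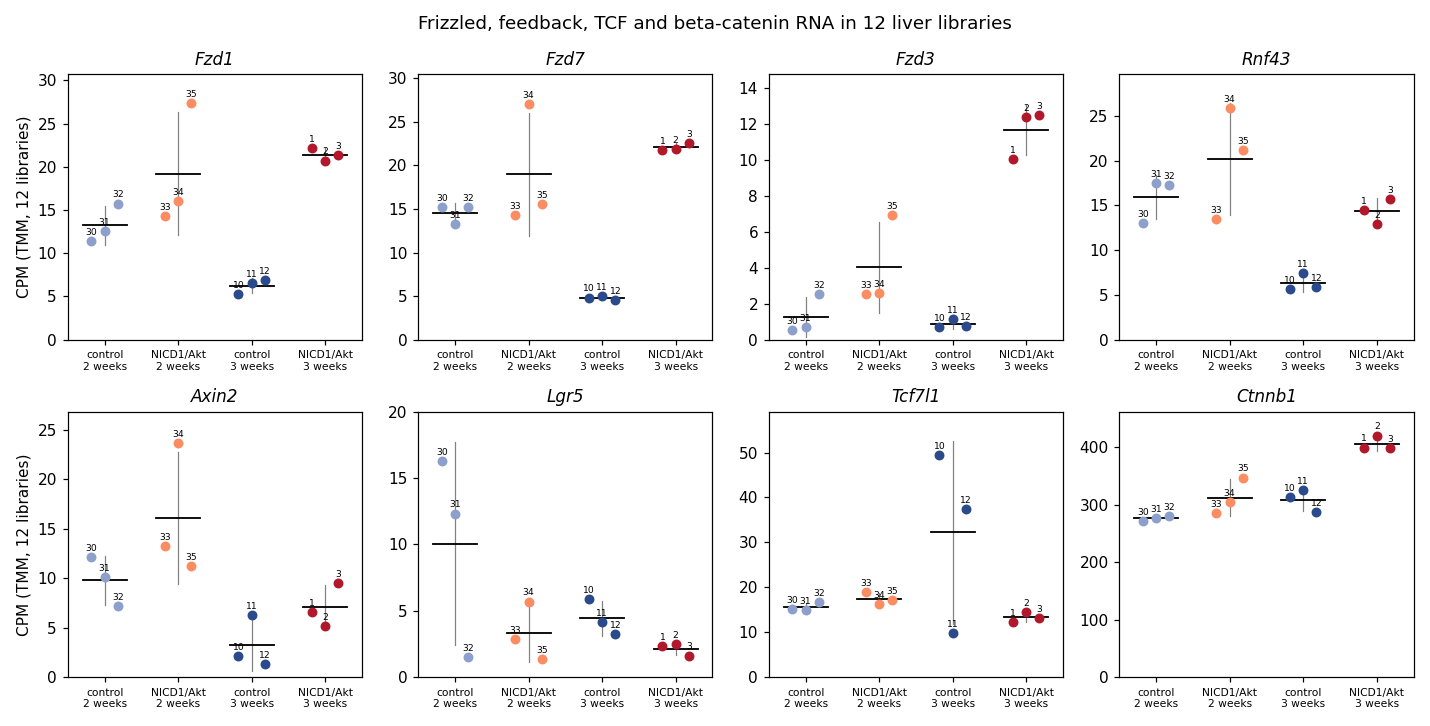
CPM of Fzd1, Fzd7, Fzd3, Rnf43, Axin2, Lgr5, Tcf7l1 and Ctnnb1 in each of the 12 libraries (points, numbered by library), with the group mean (black line) and SD (grey line, n = 3) on linear axes from 0. For Fzd1, Fzd7 and Rnf43 the 3-week controls are the low group, Axin2 overlaps between the 3-week groups (1.33 to 6.27 CPM in controls and 5.19 to 9.55 in NICD1/Akt livers), and Tcf7l1 is high in controls 10 and 12 only.

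The genes around these 43 were read from 7 pathway lists. Of 18 tested genes of planar polarity and the alternative Wnt receptors, 16 rose at 3 weeks (88.9%) and 0 fell, beside 38.9% and 33.1% of all genes. The median log2 fold change was 1.95 beside 0.06 over all genes. At the control levels given next, Ptk7, Celsr2 and Vangl2 had too few counts in the 3-week controls alone for the test. They needed the NICD1/Akt livers to pass the filter on low counts, which favours calls of higher and bears on the 0 that fell. Ptk7, a co-receptor of that route, had 0.776, 1.13 and 1.000 CPM in controls and 44.8, 51.7 and 39.3 in NICD1/Akt livers (5.65 ± 0.18, adjusted p = 2.09e-07). The atypical cadherins followed, Celsr2 with 0.863, 1.04 and 0.5001 CPM in controls and 54.8, 46.9 and 47.1 in NICD1/Akt livers (6.06 ± 0.19, adjusted p = 2.09e-07) and Celsr1 with 11.3, 13.1 and 10.5 CPM in controls and 106, 138 and 113 in NICD1/Akt livers (3.48 ± 0.14, adjusted p = 4.71e-07), and so did the core component Vangl2 with 0.431, 0.696 and 0.667 CPM in controls and 9.51, 12.7 and 11.2 in NICD1/Akt livers (4.32 ± 0.25, adjusted p = 2.15e-06). Ryk (0.19 ± 0.085, adjusted p = 0.0763) and Reck (-0.14 ± 0.21, adjusted p = 0.574), named after their values were seen, were the members that did not pass. Over 15 alternatives 12 to 18 of the list were called higher and 0 or 1 lower, while 24.5% to 67.7% of all genes were higher and 9.6% to 34.2% lower. The 18 came with library totals alone as scaling, where 67.7% of all genes were higher.

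Of 9 genes of Wnt secretion and extracellular handling, 4 were higher (44.4%) and 3 lower (33.3%), near the 38.9% and 33.1% of all genes. Wls, the carrier that takes Wnt proteins to the cell surface, had 6.73, 7.05 and 6.84 CPM in controls and 55.96, 63.3 and 53.9 in NICD1/Akt livers (3.19 ± 0.11, adjusted p = 2.13e-07), and the extracellular sulfatases rose too, Sulf2 with 13.3, 13.9 and 11.5 CPM in controls and 117, 153 and 117 in NICD1/Akt livers (3.44 ± 0.14, adjusted p = 5.46e-07) and Sulf1 with 0.259, 0.348 and 0.667 CPM in controls and 7.46, 8.06 and 6.66 in NICD1/Akt livers (4.21 ± 0.30, adjusted p = 6.73e-06). Sdc1, a heparan sulfate proteoglycan of hepatocytes, had 272, 223 and 270.5 CPM in controls and 119, 122 and 117 in NICD1/Akt livers (-0.98 ± 0.11, adjusted p = 8.70e-05). Of 6 tested inhibitors outside the symbol rule 5 rose, among them Frzb (3.41 ± 0.20, adjusted p = 2.64e-06), Trabd2b (2.17 ± 0.37, adjusted p = 8.50e-04) and Tmem131l (1.07 ± 0.10, adjusted p = 3.90e-05), and Igfbp4, a liver-secreted inhibitor that is also an IGF carrier, fell (-1.04 ± 0.17, adjusted p = 5.99e-04). Sulf1, at 0.259 to 0.667 CPM in the 3-week controls, needed the NICD1/Akt livers to pass the filter on low counts. Against controls 30 and 31 Sulf1 (0.9952, adjusted p = 0.209) and Trabd2b (0.78, adjusted p = 0.160) were not called, and Tmem131l was called in the other direction (-0.64, adjusted p = 0.0157).

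In the destruction complex and cytoplasmic signalling list 10 of 21 rose (47.6%) and 7 fell (33.3%), near the 38.9% and 33.1% of all genes. Ccdc88c, a Dishevelled-binding protein (3.15 ± 0.21, adjusted p = 4.72e-06), Csnk1g1, a casein kinase 1 (1.57 ± 0.11, adjusted p = 5.19e-06), Wtip (2.21 ± 0.19, adjusted p = 1.76e-05) and Tnks, the tankyrase that marks axin for breakdown (1.03 ± 0.096, adjusted p = 3.15e-05), rose. Of 15 nuclear cofactors 9 rose (60%) and 2 fell (13.3%): Bcl9 (2.68 ± 0.14, adjusted p = 1.54e-06), Bcl9l (1.60 ± 0.14, adjusted p = 2.23e-05) and Pygo1 (2.69 ± 0.24, adjusted p = 2.53e-05), which link beta-catenin to transcription, rose, and the corepressor Tle1 fell (-1.28 ± 0.11, adjusted p = 2.20e-05). Bcl9l and Pygo1 were not called against controls 30 and 31.

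In the general target and feedback list 8 of 16 rose (50%) and 5 fell (31.2%), near the 38.9% and 33.1% of all genes, and outside the 43 genes 6 of 11 rose and 3 fell. Ccnd1, the cyclin of G1, had 71.6, 72.7 and 70.8 CPM in 3-week controls and 603, 846 and 603 in NICD1/Akt livers (3.37 ± 0.17, adjusted p = 1.06e-06), and Cd44 (3.12 ± 0.23, adjusted p = 7.47e-06), Tnfrsf19 (4.23 ± 0.30, adjusted p = 6.39e-06) and the feedback inhibitor Nkd2 (4.09 ± 0.26, adjusted p = 3.83e-06) rose with it, whereas Notum (-1.83 ± 0.21, adjusted p = 9.09e-05), Bmp4 (-0.65 ± 0.19, adjusted p = 0.0121) and Myc (-2.56 ± 0.56, adjusted p = 0.00332), named after their values were seen, fell. For Myc the 3-week controls held 214, 37.7 and 188 CPM and the 2-week controls 5.72, 5.41 and 5.87, and against controls 30 and 31 it was called in the other direction (2.03, adjusted p = 0.0269).

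Of the 14 genes listed as pericentral hepatocyte genes under beta-catenin, 9 fell (64.3%) and 1 rose (7.14%) at 3 weeks, beside 33.1% and 38.9% of all genes. Their median log2 fold change was -1.04. With library totals alone as scaling 5 were lower and 2 higher, beside 9.6% and 67.7% of all genes. Cyp2c37 had 47.4, 47.6 and 34.9 CPM in 3-week controls and 7.65, 3.17 and 3.54 in NICD1/Akt livers (-3.05 ± 0.31, adjusted p = 5.14e-05), Cyp1a2 969, 876 and 772 CPM in controls and 251, 129 and 237 in NICD1/Akt livers (-1.96 ± 0.24, adjusted p = 1.45e-04) and Lect2 94.9, 97.6 and 93.5 CPM in controls and 35.3, 27.0 and 39.7 in NICD1/Akt livers (-1.37 ± 0.14, adjusted p = 4.73e-05). The gene that rose with TMM scaling was Aldh1b1, a mitochondrial aldehyde dehydrogenase (1.46 ± 0.16, adjusted p = 7.18e-05), whose pericentral place was not checked in these data. Hepatocyte markers outside the pericentral list, such as albumin and transthyretin, fell too: 7 of 8 were lower, and their summed level was 96436 to 100928 CPM in 3-week controls and 22950 to 34498 in NICD1/Akt livers, so lower pericentral RNA came with lower RNA of hepatocytes at large, and its part in the result was not tested.

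**Figure D4:**
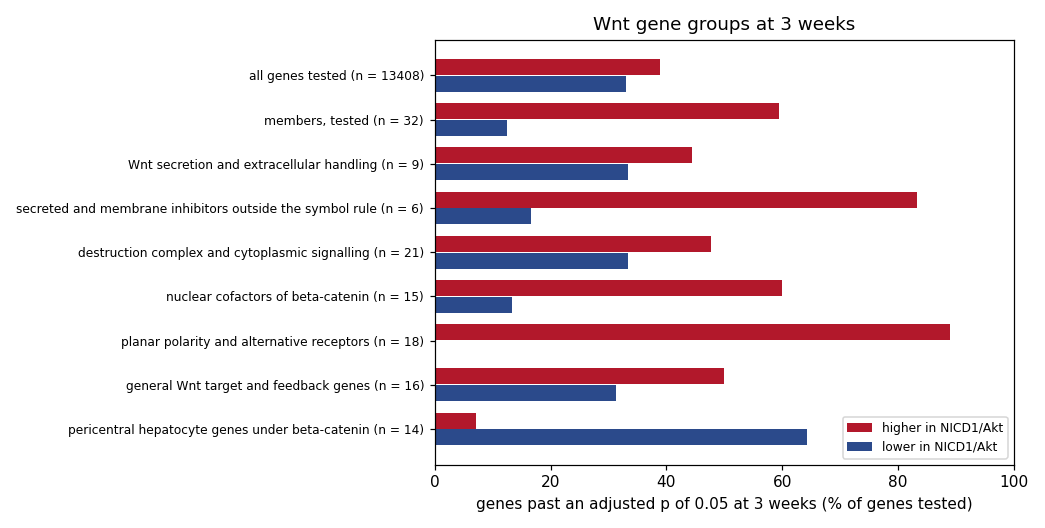
Percent of tested genes called higher (red) and lower (blue) in NICD1/Akt livers at 3 weeks for all genes, the tested Wnt genes and 7 pathway lists, with the number tested in brackets. The planar polarity list stands at 16 of 18 higher and 0 lower, and the pericentral list at 1 of 14 higher and 9 lower, beside 38.9% and 33.1% of all genes. Of the planar polarity list, Ptk7, Celsr2 and Vangl2 needed the NICD1/Akt livers to pass the filter on low counts.

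At 2 weeks none of the 32 tested Wnt genes passed an adjusted p of 0.05 in edgeR, nor in DESeq2 or limma-voom, and 0.0% of the 13041 genes tested did. At an unadjusted p of 0.05, 1 was higher (Fzd6; 3.12% of the Wnt genes, 4.9% of all genes) and 2 were lower (Rspo1 and Tcf7l2; 6.25%, beside 3.69% of all genes), shares near those of all genes. The median log2 fold change was 0.25 over the Wnt genes and 0.01 over all genes. Without library 32 the counts at an unadjusted p were 5 higher and 4 lower (15.6% and 12.5%, beside 12.3% and 5.93% of all genes in that fit), again with 0 at the adjusted threshold, and several ligands had larger estimates: Wnt7b 3.38 (adjusted p = 0.262), Wnt11 3.42 (adjusted p = 0.271) and Wnt4 2.24 (adjusted p = 0.219). The estimate without library 32 was also larger for Wnt5a (1.57, adjusted p = 0.334), Fzd3 (2.71, adjusted p = 0.195), Dkk3 (1.39, adjusted p = 0.242) and Sfrp1 (1.04, adjusted p = 0.535), and lower for Lgr5 (-2.14, adjusted p = 0.195), Rspo1 (-2.06, adjusted p = 0.207) and Tcf7 (-0.86, adjusted p = 0.222). It was 0.52 (adjusted p = 0.435) for Axin2, 0.41 (adjusted p = 0.490) for Rnf43, 0.41 (adjusted p = 0.481) for Fzd7, 0.70 (adjusted p = 0.320) for Fzd1, 0.65 (adjusted p = 0.342) for Fzd6, 0.19 (adjusted p = 0.622) for Ctnnb1, -0.44 (adjusted p = 0.242) for Tcf7l2, 0.49 (adjusted p = 0.736) for Wnt9a, 0.25 (adjusted p = 0.627) for Wnt2, -0.50 (adjusted p = 0.371) for Rspo3, -0.40 (adjusted p = 0.405) for Lrp5 and 0.46 (adjusted p = 0.835) for Fzd2. For Wnt5b the estimate stayed below 0 (-0.40, adjusted p = 0.539). Without liver 35 in turn the log2 fold change of Wnt7b was 0.040 (adjusted p = 0.993) and that of Wnt4 0.25 (adjusted p = 0.939). None of the 7 pathway lists held a gene past the adjusted threshold at 2 weeks.

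Whether the effect of NICD1/Akt changed between the stages was tested as an interaction over all 12 libraries. The 3-week effect was higher for 8 of the 32 genes (25%; 15.0% of 13829 genes) and lower for 1 (3.12%; 15.8% of all genes). Among the genes that passed, apart from Fzd2, Wnt5b had the largest difference (4.40 ± 0.38, adjusted p = 4.08e-04), followed by Wnt4 (3.73 ± 1.04, adjusted p = 0.0246), Wnt9a (3.38 ± 0.97, adjusted p = 0.0269), Rspo1 (2.89 ± 1.004, adjusted p = 0.0496), Fzd7 (1.82 ± 0.30, adjusted p = 0.00340), Fzd1 (1.23 ± 0.33, adjusted p = 0.0205) and Tcf7l2 (0.67 ± 0.20, adjusted p = 0.0294). Fzd2 passed too (adjusted p = 0.0198), with a size that depends on its 0 counts in 3-week controls, and for Wnt2 the 3-week effect was lower (-1.26 ± 0.31, adjusted p = 0.0158). Wnt11 (adjusted p = 0.0833) and Wnt7b (4.52 ± 1.63, adjusted p = 0.0551) had larger fitted differences that did not pass. Of the genes that passed, Wnt5b and Wnt2 also differed between NICD1/Akt livers of 3 and 2 weeks. For Wnt4, Wnt9a, Rspo1, Fzd1, Fzd2, Fzd7 and Tcf7l2 that comparison did not pass (0.15 to 1.55, adjusted p from 0.142 up). All of these but Rspo1 passed as lower in 3-week than in 2-week controls, and Rspo1 narrowly missed (-1.95 ± 0.74, adjusted p = 0.0575). Across stages sex and stage cannot be told apart.

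The controls of both stages differed too. Between 3-week and 2-week controls 11 of the 32 genes were lower at 3 weeks (34.4%; 20.4% of all genes) and 1, Axin1, was higher (3.12%; 17.4% of all genes), with a median log2 difference of -1.03 beside -0.10 over all genes. Without library 32 the counts called in either direction were 16 of 34 between controls (47.1%; 32.6% of all genes), in place of 12, and 8 of 34 for the interaction (23.5%; 10.1% of all genes higher and 10.9% lower), in place of 9. The genes lower in 3-week controls were Wnt4 (-3.21 ± 0.83, adjusted p = 0.0116), Wnt9a (-3.00 ± 0.81, adjusted p = 0.0144), Wnt5b (-1.35 ± 0.28, adjusted p = 0.00347), Fzd1, Fzd2, Fzd6, Fzd7 (-1.60 ± 0.22, adjusted p = 3.34e-04), Fzd8, Rnf43 (-1.33 ± 0.23, adjusted p = 0.00147), Axin2 (-1.59 ± 0.51, adjusted p = 0.0302) and Tcf7l2. The 12 stellate and fibroblast markers also differed between the control groups, summing to 593 to 1434 CPM at 2 weeks and 293 to 383 at 3 weeks, and the 6 cell cycle markers to 23.7 to 102 and 2.26 to 5.83; their part in the result was not tested.

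Between NICD1/Akt livers of 3 and 2 weeks 3 of the 32 genes were higher (9.38%; 11.1% of all genes), namely Wnt5b (3.05 ± 0.26, adjusted p = 6.91e-05), Fzd3 (1.51 ± 0.50, adjusted p = 0.0453) and Ctnnb1 (0.38 ± 0.11, adjusted p = 0.0308), and 3 were lower (9.38%; 17.4% of all genes), namely Wnt2 (-1.45 ± 0.22, adjusted p = 0.00182), Rspo3 (-0.85 ± 0.29, adjusted p = 0.0469) and Fzd4 (-0.61 ± 0.21, adjusted p = 0.0463). Without liver 35 the count of genes called in either direction was 16 of 33 (48.5%) in place of 6, near the 48.0% of all genes in that fit. Wnt5b, Fzd3 and Ctnnb1 were thus higher in 3-week NICD1/Akt livers than in 2-week NICD1/Akt livers and than in 3-week controls, in 2 comparisons that share the former.

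Because the 2 control groups differed, the 3-week NICD1/Akt livers were also set against controls 30 and 31, a comparison added after the data were seen. Of 34 genes tested, 13 were higher (27.9% of all genes) and 7 were lower (28.5% of all genes). Wnt5b (2.63, adjusted p = 1.75e-04), Wnt4 (2.73, adjusted p = 0.00382), Wnt5a (2.51, adjusted p = 0.00672), Wnt7b (4.66, adjusted p = 0.00291), Wnt11 (4.20, adjusted p = 0.0150), Fzd3 (4.20, adjusted p = 2.69e-04) and Dkk3 (2.29, adjusted p = 0.00246) were higher against these controls too. Fzd2, Fzd6, Sfrp1, Wnt9a, Rnf43, Axin2, Tcf7l2 and Tcf7l1 were not called. The 7 lower genes were Wnt2, Lgr5 (-2.73, adjusted p = 9.78e-04), Tcf7, Rspo3 (-1.36, adjusted p = 0.00266), Lrp5, Znrf3 and Fzd8. Of the 23 calls at 3 weeks, 11 were kept in all 15 alternatives, each of them higher: Wnt4, Wnt5a, Wnt5b, Wnt7b, Wnt11, Fzd1, Fzd3, Fzd5, Fzd7, Dkk3 and Ctnnb1. The share of all genes kept in this way was not computed, so the count is not read as particular to the Wnt genes. Wnt4, Wnt7b, Wnt11 and Fzd3 needed the NICD1/Akt livers to pass the filter on low counts at 3 weeks, which favours calls of higher.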

How the data were processed

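mRNA of 12 liver samples was sequenced with a stranded kit, 3 libraries per group. Per gene and library, the authors deposited unnormalized whole-number counts, with 1 table for each stage. The methods name STAR, mm10 and HTSeq, the submitters' processing notes GRCm39, STAR 2.7 and Subread 2.0.6; which made the counts, and the strand setting, are not given in the sources used here. Hence no coordinates were taken from the files, and genes with an overlapping gene on the opposite strand (Axin2, Ctnnb1, Fzd5, Fzd6, Lef1, Rspo3, Sfrp2, Tcf7l1, Wnt5a, Wnt7b and Wnt11) may share reads with it.

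From the deposited counts, all fits used R 4.3.3 and edgeR 4.0.16 (TMM, filterByExpr, glmQLFit, glmQLFTest, Benjamini-Hochberg over all genes tested, threshold 0.05). The 6 libraries of a stage were fitted together, and comparisons across stages used all 12 in 4 groups. Every adjusted p is from edgeR unless DESeq2 1.42.0 or limma-voom 3.58.1 is named. Errors of log2 values are standard errors. Symbols came from GENCODE M21 for 21573 of 21807 IDs, as did exon lengths for RPKM, and promoters from RefSeq. Counting intervals and floors cover counting error only. The steps were tested on simulated counts. Members and gene lists were chosen with earlier results of these data known. Named by rule and given library by library were Wnt9a, Axin2 and, per role, the up to 4 genes with the smallest adjusted p at 3 weeks and the 2 with the highest mean CPM; per pathway list, the up to 4 genes outside the 43 with the smallest adjusted p.

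Alternatives were other tests, scalings, filters and controls, and each library left out in turn.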

Additional observations from a re-analysis of the deposited data

Results flagged for a closer look

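For 9 of the 32 genes tested, the effect of NICD1/Akt differed between 3 and 2 weeks (edgeR over 12 libraries, adjusted p under 0.05). This test of the difference itself is what brought them here. The 3-week effect was higher for 8 (25% of the 32, beside 15.0% of all genes) and lower for 1 (3.12%, beside 15.8%). The log2 difference, 3-week effect minus 2-week effect, was 4.40 for Wnt5b, 1.82 for Fzd7, -1.26 for Wnt2, 1.23 for Fzd1, 3.73 for Wnt4, 3.38 for Wnt9a, 0.67 for Tcf7l2, 2.89 for Rspo1 and 7.93 for Fzd2, the last a fitted value that depends on 0 counts in the 3-week controls and is no measure of size. Of these genes, only Wnt5b and Wnt2 also differed between NICD1/Akt livers of 3 and 2 weeks. All but Wnt2 and Rspo1 passed as lower in 3-week than in 2-week controls, and Rspo1 narrowly missed (-1.95 ± 0.74, adjusted p = 0.0575).

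Without library 32, whose Notch1, Akt1 and Spp1 levels lay within the range of 2-week NICD1/Akt livers, Wnt5b (4.45, adjusted p = 5.31e-04), Fzd7 (1.81, adjusted p = 0.00603), Wnt2 (-1.30, adjusted p = 0.0274), Fzd1 (1.10, adjusted p = 0.0471), Wnt9a (3.29, adjusted p = 0.0495), Tcf7l2 (0.77, adjusted p = 0.0293), Rspo1 (3.21, adjusted p = 0.0431) and Fzd2 (0.0421 as adjusted p) still passed and Wnt4 did not (2.65, adjusted p = 0.0527). Over all alternatives Wnt5b, Fzd7 and Fzd2 were called each time, whereas Rspo1 was lost in 12 of 18, Tcf7l2 in 7, Wnt4 and Wnt9a in 5 each, and Fzd1 and Wnt2 in 1 each. Fzd1 was lost without control 10 and Wnt2 with library totals as scaling.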

How the results depend on the processing

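No paired analysis was possible because the labels name no pairs of libraries between the groups compared. At 3 weeks 19 genes higher and 4 lower became 12 and 2 with all 6 controls, 13 and 7 with controls 30 and 31 (added after seeing the data), 16 and 2 with all 12 libraries in 1 fit, 27 and 0 with library totals, and 16 and 1 at a p threshold of 0.01. Leaving out each library gave 16 to 21 higher and 2 to 4 lower, with 2 lower without control 10 or NICD1/Akt liver 3. Of all genes, 24.5% were higher and 25.7% lower with all 6 controls, and 27.9% and 28.5% with controls 30 and 31. With all 12 libraries the shares were 32.8% and 34.2%, and with library totals 67.7% and 9.6%. With a library left out, 36.1% to 38.1% of all genes were higher and 29.6% to 31.9% lower. At 2 weeks the count at an adjusted p was 0 in every alternative. At an unadjusted p, 1 higher became 2 with DESeq2, 0 with median-of-ratios or upper quartile factors or a threshold of 0.01, 3 with library totals, no filter or all 12 libraries and 7 with all 6 controls (0 to 5 over libraries left out, 5 without library 32), and 2 lower became 0 with library totals, all 6 controls or the threshold of 0.01 (0 to 4, 4 without library 32). The 9 differences between effects became 15 with DESeq2, 16 with library totals and 2 at 0.01 (5 to 16; 5 without NICD1/Akt liver 33 or control 10, 16 without liver 35, where 48.8% of all genes were called). The 12 differences between controls became 19 with DESeq2 and 6 at 0.01, and the 6 between NICD1/Akt livers 2 at 0.01 (2 to 16; 16 without liver 35, 3 without control 10, liver 1 or liver 2, 2 without liver 3). Where no share of all genes stands beside a count, that count is not read as a result about the Wnt genes. A minimum of 30 counts in place of 10 kept 38 of the 43 genes.

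Log2 fold changes turned sign at 3 weeks with library totals for Axin1 0.67, Lgr4 0.66, Lrp5 0.45, Rspo3 0.41, Tcf7 0.093, with upper quartile factors for Axin1 0.12, Lgr4 0.12, with all 6 controls for Fzd4 -0.19, Fzd8 -0.24, Rspo1 -0.17, Wnt9b -0.17, Znrf3 -0.20, with controls 30 and 31 for Axin1 0.19, Axin2 -0.65, Fzd4 -0.49, Fzd8 -0.74, Rnf43 -0.090, Rspo1 -1.14, Tcf7l2 -0.27, Wnt9b -0.69, Znrf3 -0.60, and with all 12 libraries for Fzd4 -0.018. Leaving out a library gave ranges of Axin1 -0.093 to 0.0011, Fzd4 -0.11 to 0.28, Lgr4 -0.15 to 0.019. At 2 weeks, where no gene was called, they turned with all 6 controls for Axin1 -0.13, Fzd8 0.36, Rspo3 0.027, Tcf7l1 -0.43, Wnt5b 0.17, Znrf3 0.11, with library totals for Fzd8 0.11, Znrf3 0.072, and with DESeq2, limma-voom or no filter for Fzd2 (-0.035, -0.035, -0.029), with ranges over libraries left out of Axin1 -0.031 to 0.060, Fzd2 -1.48 to 0.46, Fzd8 -0.34 to 0.042, Sfrp1 -0.33 to 1.04, Wnt5a -0.100 to 1.57, Wnt9a -0.062 to 0.83, Znrf3 -0.30 to 0.13. The cause was not tested. Of the values of single genes at 3 weeks, 397 kept direction and side of the threshold, 42 lost the call, 16 gained one and 25 turned sign. With 3 libraries per group and a median of 16101696 counts each, genes under 1 CPM, such as Wnt9a, Wnt11 and Fzd2, rest on few counts.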

Other observations

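Beyond the lists, NICD1/Akt liver 35 was the 2-week library nearest to the 3-week NICD1/Akt livers for most Wnt ligands but not for Wnt5b. Its levels were 30.6 CPM for Wnt4, 12.04 for Wnt5a, 5.74 for Wnt7b and 2.20 for Wnt11, beside 3-week ranges of 20.3 to 27.8, 11.4 to 12.8, 5.83 to 7.11 and 1.48 to 2.80. For Wnt5b it had 5.74 CPM beside 35.2 to 52.4. Its summed cholangiocyte markers (4783 CPM, of which Spp1 had 4256) and its Akt1 (927 CPM) lay above the 3-week NICD1/Akt ranges of 3534 to 4163 and 594 to 850.3. This is 1 library, described after its values were seen.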
